A study of Mus musculus with 12 samples.

Results

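The comparison described here is the interaction between genotype and mouse strain in newborn skull bone: for each gene, the mutant minus wild type difference on the BALB/c background minus the same difference on the C57BL/6 background, on the log2 scale. It was formed from all 12 samples of the series, none being left out by the rule that defines the contrast. The 4 groups were C57BL/6 wild type (replicates 1 to 3), C57BL/6 heterozygous for Fgfr2 C342Y (replicates 4 to 6), BALB/c wild type (replicates 13 to 15) and BALB/c heterozygous for Fgfr2 C342Y (replicates 16 to 18), with 3 samples in each. C342Y names a protein change in fibroblast growth factor (FGF) receptor 2, and heterozygous mice serve as a model of Crouzon syndrome. All mice were at postnatal day 3. The tissue was frontal bone, dissected with nasal bone and 2 adjoining sutures, the coronal and the frontonasal, digested with collagenase and trypsin before RNA extraction. The labels give neither the sex of the mice nor whether a sample was 1 animal or a pool, so p-values measure the spread between these samples. A positive interaction means that the mutation's effect was more positive in BALB/c, and a negative interaction that it was more positive in C57BL/6. By the series' title, the design asks which genes modify or mediate how severe craniosynostosis becomes.

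FGF receptor 2 is a receptor tyrosine kinase of sutures, osteoblast precursors and skin, and the C342Y change removes a cysteine of the extracellular part, which leaves receptors able to pair and signal without ligand. Skull bones such as the frontal bone form by direct ossification of mesenchyme. They grow where osteoblasts lay down mineralised matrix at the sutures and osteoclasts resorb it, and their marrow spaces hold red cell, neutrophil and B cell precursors. Craniosynostosis is the early fusion of such a suture, and its severity in Crouzon models depends on the mouse strain.

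The libraries held 27181658 to 46521546 gene counts, and levels are given as CPM, counts scaled to a common library size by TMM. By the run names in their descriptions, which read as flow cells, each strain was sequenced on its own flow cell. A flow cell effect that is the same in both genotypes cancels in the interaction. On the first principal component the C57BL/6 mutants did not lie together, replicate 4 scoring -69.2 and replicates 5 and 6 scoring 22.5 and 16.3, while the BALB/c samples scored 49.4 to 60.2. The summed level of 17 motile cilia genes, which mark nasal mucosa, was 37.6 to 73.0 CPM in C57BL/6 wild type, 23.9 CPM in mutant replicate 4, 9.70 and 10.02 CPM in mutant replicates 5 and 6, and 10.4 to 13.1 CPM in the BALB/c samples. Y-linked transcripts were present in all 3 C57BL/6 wild type samples and in 1 of 3 samples of each other group (replicates 6, 15 and 16). The genotypes thus differed in these transcripts in C57BL/6 only, so an effect of sex would not cancel in the interaction. With Y-linked transcripts as a covariate, 1106 genes passed the interaction test in edgeR, against 1626 without it.

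Fgfr2 itself, on chromosome 7 at 130162451 to 130266808, was counted over both alleles. Its level was 212, 252 and 283 CPM in C57BL/6 wild type, 337, 370 and 375 CPM in C57BL/6 mutants, 269, 287 and 290 CPM in BALB/c wild type, and 271, 310 and 318 CPM in BALB/c mutants. The C57BL/6 mutants lay above their wild type, and the BALB/c genotypes overlapped. The interaction of -0.45 (SE 0.141) did not pass the threshold (adjusted p 0.0638, edgeR), although 2 of the 12 fits without 1 sample did call it.

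Across the genome the mutation's effect differed between strains for 1626 of 16190 genes tested (10%) at an adjusted p under 0.05 in edgeR's quasi-likelihood test. Of these, 884 were positive (5.46% of the genes tested) and 742 negative (4.58%). Since tissue was measured in bulk, fewer cells of a type and less RNA per cell cannot be told apart in any of these results. Within a strain, 3867 genes (23.9%) passed between mutant and wild type in C57BL/6 and 22 (0.136%) in BALB/c. Of the 884 positive genes, 751 (85%) also passed in C57BL/6, all of them lower in the mutants, and 11 also passed in BALB/c. Of the 742 negative genes, 676 (91.1%) also passed in C57BL/6, all of them higher in the mutants, and 1 also passed in BALB/c. Positive interactions were larger: 441 reached an absolute log2 value of 1, against 30 negative ones. The number of calls varied with the samples used, from 624 without C57BL/6 mutant replicate 6 to 3129 without C57BL/6 mutant replicate 4. Of the 1626 genes, 545 passed in all 12 fits that left out 1 sample, 334 positive and 211 negative.

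The positive genes had a median interaction of 1.00, made of a median C57BL/6 effect of -0.73 and a median BALB/c effect of 0.28 on the log2 scale. For 811 of them (91.7%) the effects had opposite signs, against 52.9% of all genes tested, and selection on the interaction favours such genes. In BALB/c 378 of the 884 (42.8%) had an unadjusted p under 0.05, against 11.7% of all genes tested, a comparison that the interaction itself favours since it contains the BALB/c effect. The negative genes had a median interaction of -0.50, a median C57BL/6 effect of 0.41 and a median BALB/c effect of -0.08. Their effects had opposite signs for 558 (75.2%), and 153 (20.6%) had an unadjusted p under 0.05 in BALB/c. All 3 BALB/c mutants lay above the other 9 samples for 193 of the positive genes (21.8%, against 2.70% of all genes tested). They lay below the other 9 samples for 15 of the negative genes (2.02%, against 1.16%). The interaction contains these values too, so both shares are built in to a degree. The balance of directions depended on scaling. With total counts in place of TMM, the median interaction of all genes moved from 0.01 to 0.24, and 1672 positive and 175 negative genes passed, a positive share of 90.5% against 54.4%. All 1626 genes kept the sign of their interaction under that scaling.

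**Figure D1:**
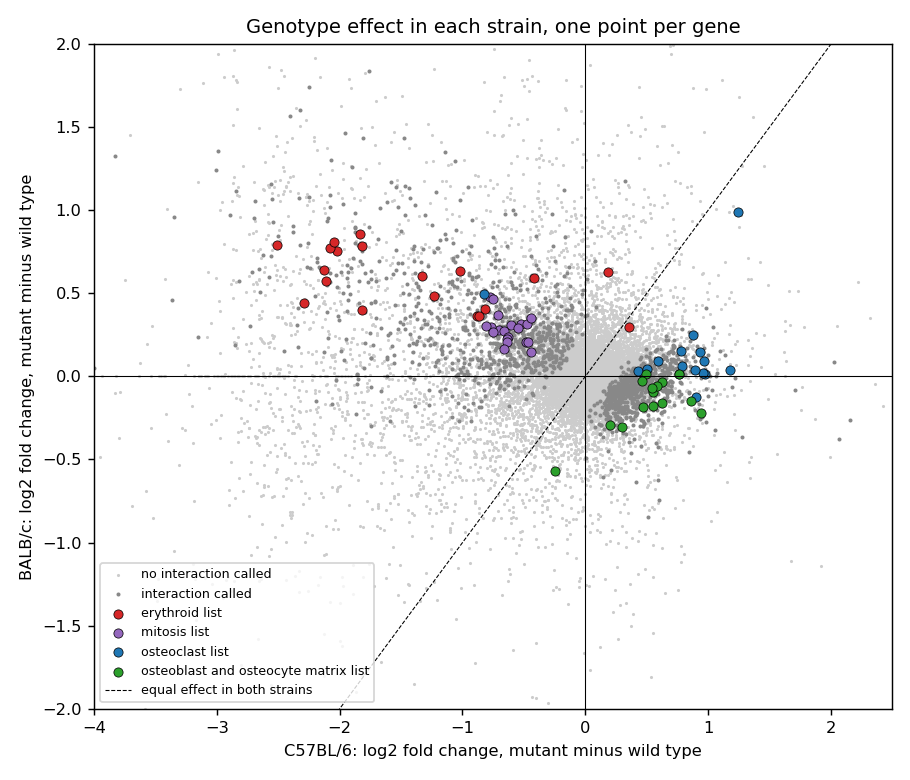
Genotype effect (mutant minus wild type, log2) in C57BL/6 on the horizontal axis and in BALB/c on the vertical axis, 1 point per gene tested. Genes that passed the interaction test are in darker grey, whatever their direction. Colours mark members of the red cell (erythroid), mitosis, osteoclast, and osteoblast and osteocyte matrix lists, and the dashed diagonal marks equal effects in both strains. The 884 positive genes lie mostly to the left of zero and above the diagonal, the 742 negative genes mostly to the right and near zero on the vertical axis, and 253 genes fall outside the axes.

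Red cell genes led the positive interactions among genes with a symbol and a mean of at least 1 CPM. Ermap, Spnb1 and Rhd had the smallest p-values, followed by Plk1, a gene of cell division. Of 21 red cell genes listed, 19 were tested and 15 passed, all positive, where 5.46% of all genes did. Their log2 values ran from 1.23 to 3.30. The list's median was 2.22 on the log2 scale, against 0.01 for all genes. In C57BL/6, 15 passed as lower in the mutants, where 12.6% of all genes did, and in BALB/c all 19 had a higher mean log2 level in the mutants, with 2 of them past the threshold (Ermap and Rhd), as for 0.0926% of all genes. All 3 C57BL/6 mutants lay below the other 9 samples for 15 of the 19 genes, against 6.05% of genes tested. Over fits that left out 1 sample, 15 to 16 of the genes passed. They numbered 15 with Y-linked transcripts or muscle genes as a covariate, 8 with the motile cilia list as a covariate, and 0 (1 at an unadjusted p under 0.05, edgeR) with the red cell list itself as a covariate, of which genotype set 94.29% of the variance in C57BL/6. The 4 that did not pass were the globin genes Hba-a1 (log2 0.45, adjusted p 0.721) and Hba-a2 (log2 1.01, adjusted p 0.0733), which are near-identical copies with uncertain counts, Car1 (log2 1.23, adjusted p 0.124) and Tfr2 (log2 -0.06, adjusted p 0.867).

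Ermap, which encodes an erythroid membrane protein that carries the Scianna blood group, lies on chromosome 4 at 119175457 to 119190011. Its level was 25.2, 18.2 and 21.0 CPM in C57BL/6 wild type and 5.24, 7.23 and 5.87 CPM in C57BL/6 mutants, and it was 27.2, 27.2 and 29.0 CPM in BALB/c wild type and 49.6, 44.9 and 49.0 CPM in BALB/c mutants. The mutants were the lowest 3 samples on one background and the highest 3 on the other, with no overlap. Ermap fell by 1.81 in C57BL/6 (SE 0.128, adjusted p 4.56e-05) and rose by 0.78 in BALB/c (SE 0.118, adjusted p 0.0398) on the log2 scale. Its interaction of 2.60 (SE 0.174, adjusted p 4.19e-05, edgeR) passed in all 12 fits that left out 1 sample. Rhd, the Rh blood group antigen gene (chromosome 4, 134864536 to 134896172), measured 11.8, 11.6 and 12.9 CPM in C57BL/6 wild type, 2.76, 3.54 and 3.88 CPM in C57BL/6 mutants, 18.6, 14.2 and 14.7 CPM in BALB/c wild type, and 31.8, 27.8 and 26.6 CPM in BALB/c mutants. Again the mutants of each strain stood clear of their wild type, in opposite directions, and the interaction was 2.70 (SE 0.192, adjusted p 5.08e-05). Spnb1, the erythroid beta-spectrin of the membrane skeleton (chromosome 12, 76580488 to 76710547), fell from 47.4 CPM ± 5.84 to 14.8 CPM ± 0.607 in C57BL/6 and rose from 46.3 CPM ± 6.71 to 75.0 CPM ± 6.44 in BALB/c (SD, n = 3), an interaction of 2.38 (SE 0.161, adjusted p 4.19e-05).

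The transcription factors of the lineage moved with the membrane genes in C57BL/6. Klf1, which drives globin and membrane genes (chromosome 8, 84901928 to 84905295), measured 9.56, 6.14 and 6.43 CPM in C57BL/6 wild type, 1.08, 1.46 and 1.35 CPM in C57BL/6 mutants, 9.09, 7.53 and 10.7 CPM in BALB/c wild type, and 17.1, 16.2 and 13.8 CPM in BALB/c mutants. The BALB/c mutants were the 3 highest samples, but that difference of 0.79 did not pass in BALB/c (adjusted p 0.124), and the interaction was 3.30 (SE 0.279, adjusted p 0.000119, edgeR). Gata1, the master regulator of red cell genes, had an interaction of 2.73 (adjusted p 0.00155), Tal1, its partner in DNA-bound complexes, 1.25 (adjusted p 0.000631) and Epor, the erythropoietin receptor, 1.23 (adjusted p 0.0104). Kel, encoding a blood group endopeptidase, reached 2.77 (adjusted p 0.000408) and Spna1, alpha-spectrin, 2.85 (adjusted p 0.000286). E2f2, a cell cycle factor with a known part in red cell maturation, had an interaction of 1.90 (adjusted p 0.000119), and Cd24a, a surface protein of red cell and B cell precursors, 2.42 (adjusted p 0.000109). Ces2g, a carboxylesterase, and Ctse, an aspartic protease of red cells and stomach, had interactions of 2.39 (adjusted p 0.000119) and 2.90 (adjusted p 0.000122).

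Heme synthesis showed the same direction. Of 11 genes tested, 10 passed with a positive interaction (median 0.78), where 5.46% of all genes did, and 8 passed as lower in C57BL/6 mutants, where 12.6% did. The call was kept by 6 in every fit that left out 1 sample. Positive calls numbered 7 with the Y-linked covariate, 6 with the muscle covariate, 1 with the motile cilia covariate and 0 with the red cell covariate (edgeR, 0 at an unadjusted p under 0.05). Alas2, the first and rate-limiting enzyme in red cells, measured 35.4, 43.8 and 55.6 CPM in C57BL/6 wild type, 18.6, 25.6 and 22.4 CPM in C57BL/6 mutants, 68.7, 79.8 and 49.8 CPM in BALB/c wild type, and 114, 93.1 and 101 CPM in BALB/c mutants. Both pairs of groups were without overlap, and the interaction was 1.65 (SE 0.266, adjusted p 0.00503). Slc25a38, the mitochondrial glycine carrier, had an interaction of 0.78 (adjusted p 0.00596). Abcb10, a mitochondrial transporter of red cell precursors, fell by 0.60 in C57BL/6 (adjusted p 0.00109) and rose by 0.57 in BALB/c (adjusted p 0.0398), an interaction of 1.17 (SE 0.123, adjusted p 0.000408). The gene not called is Alas1, the form of the first enzyme used outside red cells.

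Red cell promoters are known to carry GATA sites and CACCC boxes, so the RefSeq promoters of the list (build GRCm38.p6, 250 bases before to 50 after the start) were searched on both strands for AGATAA, a core recognised by GATA1, and CCACCC, a core recognised by KLF1. Of the 21 genes, 16 matched, with 19 promoters. AGATAA was in 7 of the 19 (36.8%), against 11.2% of 32851 RefSeq promoters of the same length, and CCACCC was in 12 (63.2%), against 31.5%. The same search of 12 heme synthesis promoters found AGATAA in 2 (16.7%) and CCACCC in 2 (16.7%), the latter below the share of all promoters. A match describes letters in the window and is not a measured binding site. The 2 members of the list that passed in opposite directions in the 2 strains are shown 5′ to 3′ along the gene's own strand, with the motif in capitals: CCACCC on the opposite strand, read as GGGTGG, for Ermap (chr4:119189946-119190245, minus strand) and AGATAA for Rhd (chr4:134864286-134864585, plus strand).
Ermap: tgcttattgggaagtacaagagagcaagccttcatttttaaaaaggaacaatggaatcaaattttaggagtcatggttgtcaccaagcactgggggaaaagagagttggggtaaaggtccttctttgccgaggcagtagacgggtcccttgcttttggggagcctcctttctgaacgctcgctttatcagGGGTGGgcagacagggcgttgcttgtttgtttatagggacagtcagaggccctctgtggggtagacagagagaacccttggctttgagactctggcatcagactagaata
Rhd: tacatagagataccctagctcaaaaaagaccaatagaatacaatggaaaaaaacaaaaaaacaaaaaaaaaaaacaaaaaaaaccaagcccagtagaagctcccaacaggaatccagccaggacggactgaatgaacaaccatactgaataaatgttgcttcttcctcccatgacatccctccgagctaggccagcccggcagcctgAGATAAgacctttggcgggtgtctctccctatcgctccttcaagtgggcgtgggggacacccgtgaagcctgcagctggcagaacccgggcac

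**Figure D2:**
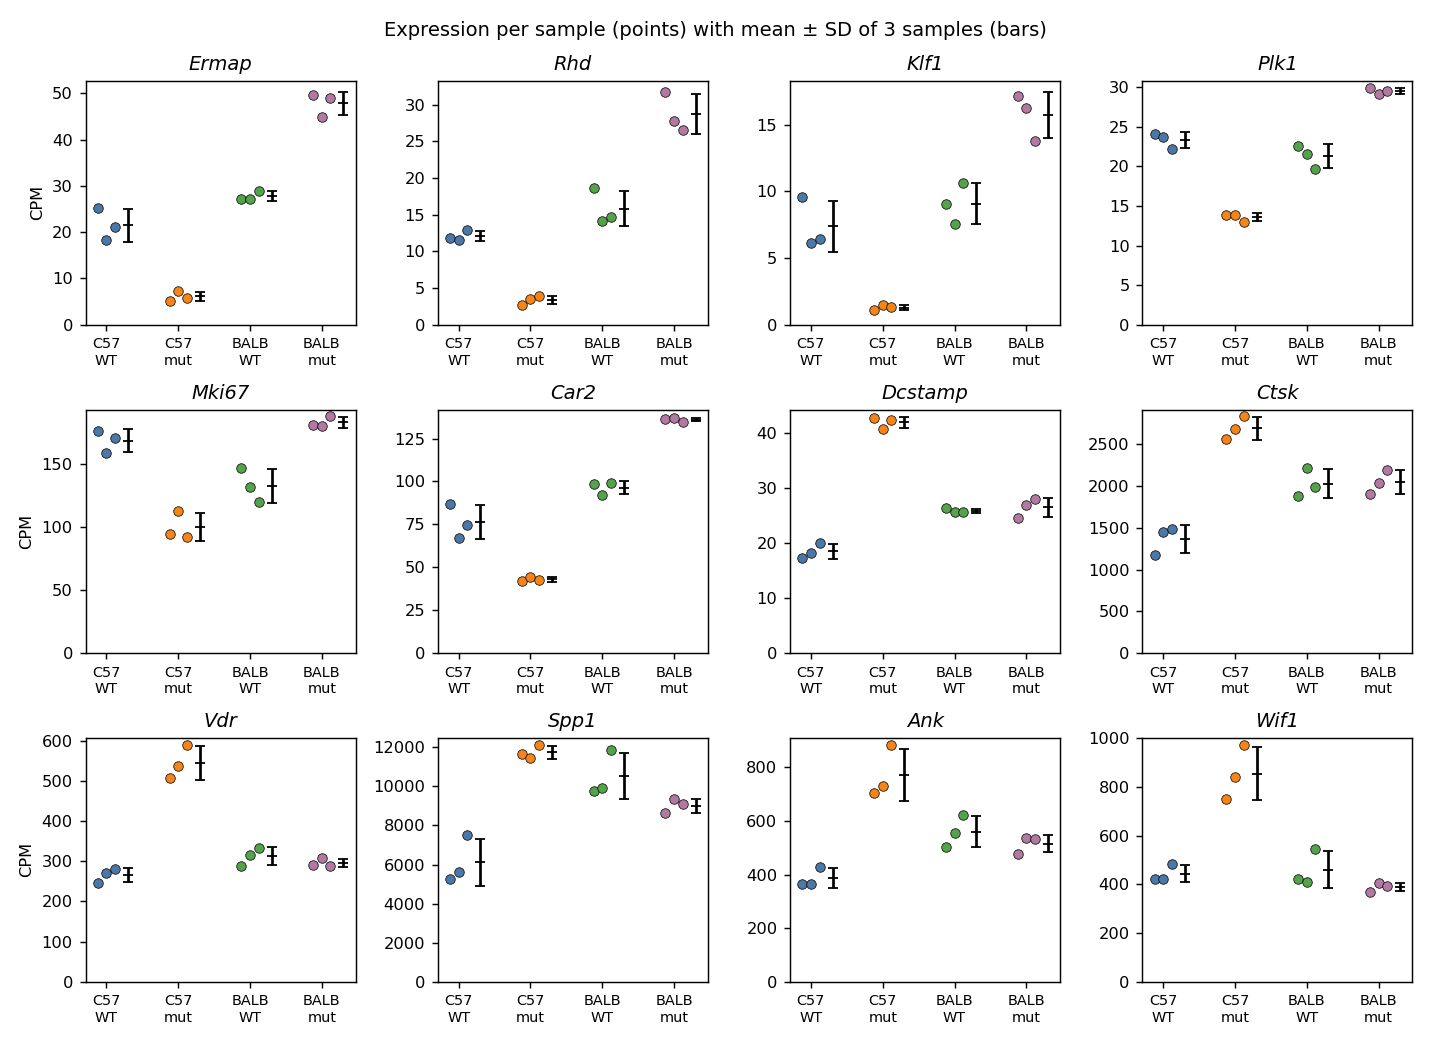
Expression of 12 genes in CPM on the vertical axis, from zero, with 1 point per sample and bars for the mean ± SD of the 3 samples of each group. Ermap, Rhd, Klf1, Plk1, Mki67 and Car2 have the C57BL/6 mutants below their wild type and the BALB/c mutants above theirs, while for Dcstamp, Ctsk, Vdr, Spp1, Ank and Wif1 the C57BL/6 mutants are above their wild type and the BALB/c groups lie close together.

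Genes of cell division had the other large group of positive interactions. Of 20 mitosis genes tested, 19 passed, all positive, with log2 values from 0.59 to 1.25 and a list median of 0.86, where 5.46% of all genes passed as positive. All 20 were lower in C57BL/6 mutants past the threshold, as were 12.6% of all genes. In BALB/c all 20 had a higher mean log2 level in the mutants, with a median of 0.29, and 1 passed (Plk1). The summed level of the list was 841 to 955 CPM in C57BL/6 wild type, 524 to 658 CPM in C57BL/6 mutants, 697 to 809 CPM in BALB/c wild type and 926 to 934 CPM in BALB/c mutants. No pair of genotype groups overlapped. From 17 to 20 of the genes passed in fits that left out 1 sample, 20 with the Y-linked covariate, 17 with the muscle covariate, 3 with the motile cilia covariate and 0 with the red cell covariate (edgeR, 1 at an unadjusted p under 0.05). Red cell precursors divide, and the red cell list moved with this one: its summed level was 550 to 718 CPM, 207 to 256 CPM, 944 to 1351 CPM and 1613 to 1938 CPM in the same order of groups. The part of those cells in the mitosis result was not tested.

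Plk1, a kinase needed to enter and complete mitosis (chromosome 7, 122159437 to 122169875), showed the pattern with little spread. It measured 24.1, 23.7 and 22.1 CPM in C57BL/6 wild type, 13.9, 13.9 and 12.99 CPM in C57BL/6 mutants, 22.6, 21.6 and 19.6 CPM in BALB/c wild type, and 29.9, 29.2 and 29.5 CPM in BALB/c mutants. The wild type ranges of the strains overlapped, the C57BL/6 mutants were the 3 lowest samples and the BALB/c mutants the 3 highest. Plk1 fell by 0.78 in C57BL/6 (adjusted p 8.26e-05) and rose by 0.48 in BALB/c (adjusted p 0.0369), an interaction of 1.25 (SE 0.0917, adjusted p 5.23e-05) that passed in all 12 fits that left out 1 sample. Mki67, whose protein coats mitotic chromosomes, measured 176, 159 and 171 CPM, then 95.1, 113 and 92.7 CPM in C57BL/6 wild type and mutants, and 147, 132 and 120 CPM, then 182, 180 and 189 CPM in BALB/c wild type and mutants. The groups did not overlap in either strain, although the BALB/c difference of 0.46 did not pass (adjusted p 0.0676), and the interaction was 1.22 (SE 0.124, adjusted p 0.000342). Ccnb1, the mitotic cyclin B1, had an interaction of 1.08 (adjusted p 0.00108). Ccna2, cyclin A2, had one of 0.98 (adjusted p 0.000206), but it overlaps Exosc9 and the strand setting of the counting is not given. Bub1, a checkpoint kinase, was the 1 gene that did not pass (0.69, adjusted p 0.0543).

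DNA replication genes had smaller interactions, with a list median of 0.49. Of 17 tested, 8 passed, all positive (Mcm2, Mcm3, Mcm5, Mcm7, Rrm1, Rrm2, Tyms and Cdc6), where 5.46% of all genes did, and 11 were lower in C57BL/6 mutants past the threshold, where 12.6% were. The interaction call was kept by 4 in every fit that left out 1 sample. With the muscle covariate 4 passed, and with the motile cilia covariate 0 did (edgeR, 12 at an unadjusted p under 0.05). Mcm2, a subunit of the replicative helicase, measured 69.2, 66.8 and 71.6 CPM in C57BL/6 wild type, 48.1, 55.2 and 44.0 CPM in C57BL/6 mutants, 59.5, 55.0 and 65.1 CPM in BALB/c wild type and 69.9, 69.3 and 68.7 CPM in BALB/c mutants. Its C57BL/6 mutants were below their wild type by a wide margin and its BALB/c mutants above theirs by a narrow one, an interaction of 0.71 (SE 0.114, adjusted p 0.00502). Rrm2, the regulated subunit of ribonucleotide reductase, had an interaction of 0.93 (adjusted p 0.0116).

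Promoters of mitosis genes are known for a CHR element, TTTGAA, placed a short way downstream of CCAAT boxes. Of the 20 genes, 16 had a RefSeq promoter. TTTGAA was found in 11 of the 16 (68.8%), against 17.9% of all promoters of the same length, and CCAAT in 14 (87.5%), against 37.4%. The 11 promoters with TTTGAA all held CCAAT too (68.8%, against 6.95% of all promoters with both). The promoter of Plk1 (chr7:122159185-122159484, plus strand) is shown because that gene passed in both strains, with both motifs in capitals, CCAAT first.
Plk1: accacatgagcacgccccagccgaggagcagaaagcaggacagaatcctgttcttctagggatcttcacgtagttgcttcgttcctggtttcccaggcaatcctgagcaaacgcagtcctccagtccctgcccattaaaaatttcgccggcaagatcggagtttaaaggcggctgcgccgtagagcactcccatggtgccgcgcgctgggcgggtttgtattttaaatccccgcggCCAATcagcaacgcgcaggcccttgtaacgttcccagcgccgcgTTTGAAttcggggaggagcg

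Other blood lineages of the marrow also had positive interactions. Of 11 B cell precursor genes, 7 passed (among them Vpreb3, Igll1, Cd79a, Cd79b, Ebf1 and Rag1; list median 1.59), all positive, where 5.46% of all genes did, and 4 kept the call in every fit that left out 1 sample. With the muscle covariate 2 passed, and with the motile cilia covariate 0 did (edgeR, 2 at an unadjusted p under 0.05). Vpreb3 measured 2.39, 1.02 and 1.29 CPM in C57BL/6 wild type, 0.633, 0.679 and 0.485 CPM in C57BL/6 mutants, 3.76, 2.90 and 3.63 CPM in BALB/c wild type, and 8.75, 5.81 and 6.5 CPM in BALB/c mutants, so that the genotypes were separate in both strains. Vpreb3 and Igll1, parts of the pre-B cell receptor machinery, had interactions of 2.42 (adjusted p 0.00775) and 2.01 (adjusted p 0.00756), and Rag1, a recombinase of antigen receptor genes, one of 1.59 (adjusted p 0.019). Of 14 neutrophil granule genes, 5 passed (35.7%, against 10% of all genes), all positive: Mpo, myeloperoxidase (2.68, adjusted p 0.0112), Prtn3, proteinase 3 (2.09, adjusted p 0.0074), Elane, neutrophil elastase (3.01, adjusted p 0.0209), Ctsg, cathepsin G (2.27, adjusted p 0.0342) and Camp, cathelicidin (1.54, adjusted p 0.0344). The first 4 are primary granule proteins made by early precursors. Of these 14 genes 2 to 10 passed in fits that left out 1 sample, 3 with the muscle covariate and 0 with the motile cilia covariate (edgeR, 5 at an unadjusted p under 0.05).

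Osteoclasts, the bone-resorbing cells, stood on the negative side. Of 16 osteoclast genes, 13 passed with a negative interaction (median of the list -0.74) and 1 with a positive one. Of all genes tested, 4.58% passed as negative and 5.46% as positive. In C57BL/6, 15 passed as higher in the mutants (11.3% of all genes tested did), and in BALB/c 15 of the 16 had a higher mean log2 level in the mutants, with a median effect of 0.05 and 1 gene past the threshold (Car2). All 3 C57BL/6 mutants lay above the other 9 samples for 13 of the genes, against 8.30% of all genes tested. The summed level was 4314 to 5185 CPM in C57BL/6 wild type, 8632 to 9639 CPM in C57BL/6 mutants, 5158 to 6102 CPM in BALB/c wild type and 5408 to 6150 CPM in BALB/c mutants. The 13 negative calls became 9 when libraries were scaled by total counts. They numbered 11 to 14 when 1 sample was left out, 11 with the Y-linked covariate, 7 with the muscle covariate, 1 with the motile cilia covariate and 0 with the red cell covariate (edgeR, 1 at an unadjusted p under 0.05).

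Dcstamp, a membrane protein needed for osteoclast precursors to fuse (chromosome 15, 39745932 to 39760934), measured 17.3, 18.2 and 20 CPM in C57BL/6 wild type, 42.7, 40.7 and 42.4 CPM in C57BL/6 mutants, 26.3, 25.6 and 25.6 CPM in BALB/c wild type and 24.6, 26.9 and 28 CPM in BALB/c mutants. The C57BL/6 mutants lay above the other 9 samples, and the BALB/c groups overlapped. C57BL/6 mutant replicate 4, which stood apart from the other mutants on the first principal component, did not stand apart here. Dcstamp rose by 1.18 in C57BL/6 (SE 0.0665, adjusted p 1.07e-05), had a BALB/c effect of 0.04 (adjusted p 0.896) and an interaction of -1.14 (SE 0.0935, adjusted p 0.000109, edgeR). Ctsk, cathepsin K, which digests bone collagen, measured 1174, 1448 and 1485 CPM in C57BL/6 wild type, 2564, 2681 and 2835 CPM in C57BL/6 mutants, 1879, 2223 and 1986 CPM in BALB/c wild type and 1912, 2035 and 2198 CPM in BALB/c mutants. Only its C57BL/6 groups were separate, and its interaction was -0.96 (SE 0.142, adjusted p 0.00326). Mmp9, a gelatinase of osteoclasts, had an interaction of -0.87 (SE 0.139, adjusted p 0.00484) and Tcirg1, a subunit of the proton pump that acidifies the resorption pit, -0.73 (SE 0.106, adjusted p 0.00321). Clcn7 and Ostm1, the chloride transporter and its partner, had interactions of -0.46 (adjusted p 0.0124) and -0.50 (adjusted p 0.0365). Calcr, the calcitonin receptor, had an interaction of -0.25 (adjusted p 0.751), with levels in BALB/c of 1.69 CPM ± 0.767 in wild type and 3.35 CPM ± 0.624 in mutants (SD, n = 3).

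The positive member of the list was Car2, carbonic anhydrase 2, an enzyme that both osteoclasts and red cells make (chromosome 3, 14886426 to 14900770). It measured 86.8, 67.3 and 74.4 CPM in C57BL/6 wild type, 41.9, 44.5 and 42.8 CPM in C57BL/6 mutants, 98.3, 92.1 and 99.0 CPM in BALB/c wild type, and 136, 137 and 135 CPM in BALB/c mutants. Car2 differed from the other osteoclast genes in its direction in C57BL/6: it fell by 0.82 in C57BL/6 (adjusted p 0.000128), rose by 0.50 in BALB/c (adjusted p 0.0398) and had an interaction of 1.32 (SE 0.109, adjusted p 0.000109).

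**Figure D3:**
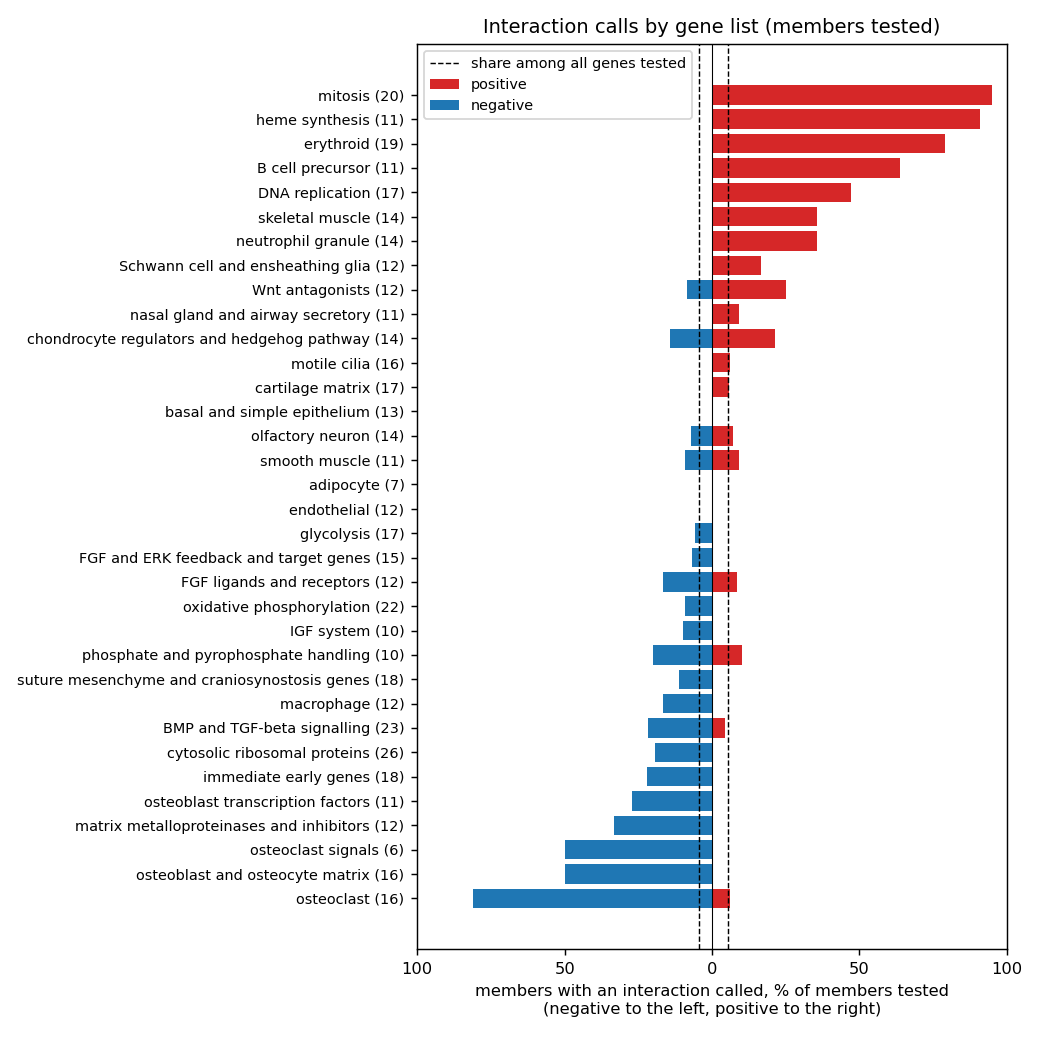
Share of each gene list that passed the interaction test, in percent of members tested (their number in brackets), with negative calls to the left and positive calls to the right. Dashed lines mark the shares among all genes tested, 4.58% negative and 5.46% positive, and the mitosis, heme, red cell (erythroid) and osteoclast lists lie far from them.

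Among signals that form or restrain osteoclasts, 3 of 6 passed, all negative, where 4.58% of all genes did. With total counts 0 passed and with the muscle covariate 0 (edgeR, 3 and 5 at an unadjusted p under 0.05), with the Y-linked covariate 1, and in DESeq2 and limma-voom 4 and 3. When 1 sample was left out, 1 to 4 passed. Sema4d, a semaphorin that osteoclasts use to restrain osteoblasts, measured 92.2 to 98.3 CPM in C57BL/6 wild type, 143 to 178 CPM in C57BL/6 mutants, 92.3 to 109 CPM in BALB/c wild type and 107 to 121 CPM in BALB/c mutants, with an interaction of -0.59 (SE 0.122, adjusted p 0.0149) that passed in all 12 fits that left out 1 sample. Tnfsf11, the osteoclast-forming ligand RANKL, had an interaction of -0.72 (SE 0.208, adjusted p 0.0491) that passed in 3 of those fits, and Sema3a, a semaphorin that protects bone, one of -0.54 (adjusted p 0.0456). Csf1, a growth factor for osteoclast precursors, had an interaction of -0.57 (adjusted p 0.0649) and Tnfrsf11b, the decoy receptor for RANKL, of -0.45 (adjusted p 0.118). Of 12 macrophage genes tested, 2 passed (16.7%, against 10% of all genes), both negative, and both are also made by osteoclasts. These were Cd68 (-1.09, SE 0.141, adjusted p 0.00165), a lysosomal glycoprotein, and Csf1r (-0.75, SE 0.144, adjusted p 0.0112), the receptor for Csf1. The summed level of the macrophage list was 396 to 493 CPM in C57BL/6 wild type, 637 to 712 CPM in C57BL/6 mutants, 458 to 518 CPM in BALB/c wild type and 469 to 496 CPM in BALB/c mutants, so the genotypes were separate in C57BL/6 and overlapped in BALB/c.

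Other genes among the 10 negative interactions with the smallest p-values are not restricted to 1 cell type. Vdr, the vitamin D receptor (chromosome 15, 97854427 to 97908296), measured 247, 271 and 280 CPM in C57BL/6 wild type, 506, 538 and 590 CPM in C57BL/6 mutants, 289, 314 and 333 CPM in BALB/c wild type and 290, 308 and 289 CPM in BALB/c mutants. The C57BL/6 mutants were far above the other 9 samples, which ran from 247 to 333 CPM, and the interaction was -1.11 (SE 0.111, adjusted p 0.000306). Lifr, the receptor for leukemia inhibitory factor, had an interaction of -1.02 (SE 0.129, adjusted p 0.00155) with a BALB/c effect of 0.00. Pstpip1, a cytoskeletal adaptor of blood cells, had one of -0.79 (adjusted p 0.000694) and Manba, a lysosomal mannosidase, one of -0.74 (adjusted p 0.00173).

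Genes of osteoblasts and mineralised matrix also had negative interactions. Of 16 matrix genes of osteoblasts and osteocytes, 8 passed with a negative interaction (Spp1, Dmp1, Mepe, Bglap, Phex, Fam20c, Pdpn and Col13a1) and none with a positive one, and the list's median was -0.65. Negative calls made up 4.58% of all genes tested. In C57BL/6, 11 passed as higher in the mutants, where 11.3% of all genes did. Of the 8, 2 kept the call in every fit that left out 1 sample, and 3 passed when libraries were scaled by total counts. Calls numbered 3 with the Y-linked covariate, 2 with the muscle covariate and 0 with the motile cilia covariate (edgeR, 4 at an unadjusted p under 0.05). The list's most abundant genes, Col1a1, Col1a2 and Sparc, did not pass. Spp1, osteopontin, a matrix phosphoprotein made by osteoblasts and osteoclasts, measured 5254, 5615 and 7491 CPM in C57BL/6 wild type, 11646, 11468 and 12122 CPM in C57BL/6 mutants, 9770, 9921 and 11886 CPM in BALB/c wild type, and 8628, 9340 and 9084 CPM in BALB/c mutants. Wild type BALB/c was thus near the level of the C57BL/6 mutants, a comparison between strains that also spans flow cells. The BALB/c mutants lay just below their wild type, a difference of -0.22 that did not pass (adjusted p 0.53, edgeR). The interaction was -1.16 (SE 0.173, adjusted p 0.00346) and passed in all 12 fits that left out 1 sample. Col13a1, a transmembrane collagen of osteoblasts, measured 95.0, 128 and 132 CPM in C57BL/6 wild type, 210, 193 and 243 CPM in C57BL/6 mutants, 126, 123 and 122 CPM in BALB/c wild type and 110, 113 and 112 CPM in BALB/c mutants, an interaction of -1.01 (SE 0.159, adjusted p 0.00457). Phex, an endopeptidase of osteocytes whose loss causes phosphate wasting, had an interaction of -0.78 (adjusted p 0.0345) that passed in 5 of 12 fits that left out 1 sample.

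Pyrophosphate blocks mineral growth, and 2 of its suppliers had negative interactions. Ank, which exports ATP and pyrophosphate from cells (chromosome 15, 27466677 to 27594907), measured 364, 364 and 429 CPM in C57BL/6 wild type, 703, 732 and 883 CPM in C57BL/6 mutants, 504, 555 and 621 CPM in BALB/c wild type, and 478, 535 and 533 CPM in BALB/c mutants. Its BALB/c groups overlapped, and its interaction of -1.12 (SE 0.153, adjusted p 0.00213) passed in all 12 fits that left out 1 sample. Enpp1, which makes pyrophosphate from ATP, measured 110, 129 and 140 CPM in C57BL/6 wild type and 188, 228 and 200 CPM in C57BL/6 mutants, 109 to 127 CPM over both BALB/c groups, and had an interaction of -0.73 (SE 0.138, adjusted p 0.0108). Alpl, the phosphatase that breaks pyrophosphate down, had an interaction of -0.62 that did not pass (SE 0.211, adjusted p 0.0803). Of the list's 10 members, 3 passed (30%, against 10% of all genes), the third being Entpd5. Entpd5, a nucleotidase, had a positive interaction (1.06, adjusted p 0.0244) that passed in 6 of 12 fits that left out 1 sample.

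Of 11 osteoblast transcription factors tested, 3 passed (27.3%, against 10% of all genes), all negative: Sp7, osterix (-0.61, adjusted p 0.0406), Tcf7, a Wnt-responsive factor (-0.49, adjusted p 0.0357) and Dlx3, a homeobox factor (-0.38, adjusted p 0.049). None of them kept the call in every fit that left out 1 sample. With total-count scaling 1 member of the list passed, and 0 passed in edgeR with the Y-linked or the muscle covariate (6 and 5 at an unadjusted p under 0.05), against 6 in DESeq2 and 4 in limma-voom without a covariate. Runx2, the factor that commits cells to the osteoblast lineage, measured 304, 305 and 320 CPM in C57BL/6 wild type, 458, 493 and 508 CPM in C57BL/6 mutants, 229, 261 and 240 CPM in BALB/c wild type, and 235, 298 and 321 CPM in BALB/c mutants. Its BALB/c groups overlapped and its interaction of -0.42 (SE 0.142) did not pass (adjusted p 0.0761). Of 18 suture and craniosynostosis genes, 2 passed (11.1%, a share near the 10% of all genes), both negative: Efnb1, a ligand of Eph receptors mutated in craniofrontonasal syndrome (-0.54, adjusted p 0.0426), and Foxc1, a factor of skull mesenchyme (-0.34, adjusted p 0.0279). When 1 sample was left out, 0 to 4 of the 18 passed, and DESeq2 with all samples called 6. Twist1, a craniosynostosis gene that restrains osteoblast formation, had an interaction of -0.54 (SE 0.204, adjusted p 0.104).

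**Figure D4:**
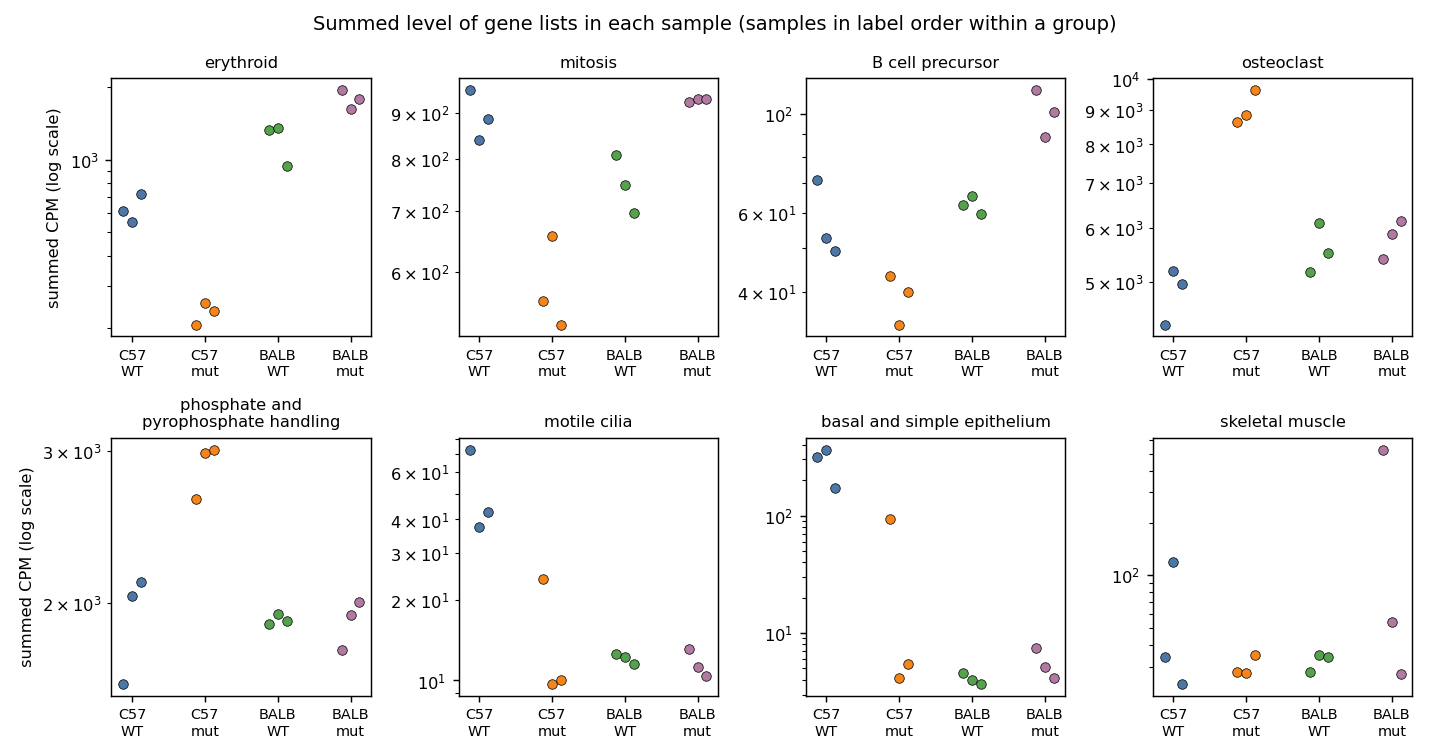
Summed CPM of 8 gene lists on log axes, 1 point per sample in label order within a group. The red cell (erythroid) and mitosis lists have no overlap between genotypes in either strain, the osteoclast list separates the genotypes in C57BL/6 alone, and single samples stand out for motile cilia and epithelium (C57BL/6 mutant replicate 4) and for muscle (BALB/c mutant replicate 16).

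In the FGF pathway, of 12 ligands and receptors, 3 passed: Fgf1, a ligand for all FGF receptors (-0.65, adjusted p 0.0244), Fgfr1, a receptor of mesenchyme and osteoblasts (-0.46, adjusted p 0.0473) and Fgf10, a mesenchymal ligand of the epithelial form of FGF receptor 2 (1.02, adjusted p 0.0445). Fgfr1 measured 350, 446 and 435 CPM in C57BL/6 wild type, 553, 584 and 616 CPM in C57BL/6 mutants, 486, 505 and 447 CPM in BALB/c wild type and 467, 520 and 501 CPM in BALB/c mutants. As for Fgfr2, the C57BL/6 mutants lay above their wild type and the BALB/c groups overlapped. The call was kept in 3 of 12 fits that left out 1 sample, against 7 for Fgf1 and 2 for Fgf10. Fgf18, a ligand that osteoblasts need, had an interaction of 0.09 (SE 0.341, adjusted p 0.892), and Fgfr3, a receptor of cartilage, of 0.11 (SE 0.128, adjusted p 0.60). Of 15 feedback and target genes of FGF and ERK signalling, 1 passed. Etv5, an ETS factor induced by FGF, measured 43.1, 41.6 and 46.1 CPM in C57BL/6 wild type, 54.5, 60.7 and 62.3 CPM in C57BL/6 mutants, 43.5, 50.5 and 48.1 CPM in BALB/c wild type, and 43.2, 49.9 and 42.4 CPM in BALB/c mutants, an interaction of -0.51 (SE 0.115, adjusted p 0.0214) that passed in 6 of 12 fits that left out 1 sample. These shares, 25% and 6.67% of the lists, are to be read against the 10% of all genes that passed, and leaving out 1 sample gave 0 to 6 and 0 to 2 calls in them.

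Among other signals, Wif1 had the smallest p. It encodes a secreted Wnt inhibitor (chromosome 10, 121034004 to 121100642) and measured 423, 423 and 484 CPM in C57BL/6 wild type, 753, 841 and 972 CPM in C57BL/6 mutants, 421, 412 and 547 CPM in BALB/c wild type, and 369, 404 and 392 CPM in BALB/c mutants. The BALB/c mutants lay just below their wild type (-0.24, adjusted p 0.464), and the interaction was -1.19 (SE 0.169, adjusted p 0.00273). Of the 12 Wnt antagonists, 3 others passed with positive interactions: Sfrp1 (2.01, adjusted p 0.0346), Frzb (0.92, adjusted p 0.0363) and Sostdc1 (1.27, adjusted p 0.0426). Of 23 BMP and TGF-beta genes, Bmp3, Tgfb1, Id3, Smad7 and Tgfbr2 were negative and Grem1 positive. Bmp3, a ligand that dampens bone formation, had an interaction of -0.54 (SE 0.109, adjusted p 0.0133), with the mutants above their wild type in both strains. Grem1, a BMP antagonist, had one of 1.69 (SE 0.395, adjusted p 0.0246). Of 10 genes of the insulin-like growth factor (IGF) system, Igfbp5, an IGF-binding protein abundant in bone, passed (-0.80, SE 0.149, adjusted p 0.00984). Of 12 metalloproteinases and inhibitors, Mmp9, Mmp13, Mmp16 and Timp3 passed, all negative. Timp3 lies within Syn3, so its counts are uncertain. The shares called were 33.3% of the Wnt antagonists, 26.1% of the BMP and TGF-beta genes, 10% of the IGF system and 33.3% of the metalloproteinases and inhibitors, against 10% of all genes, so the IGF share is that of all genes. With the muscle covariate 1 Wnt antagonist passed, 2 metalloproteinases or inhibitors did and 0 BMP and TGF-beta genes did (edgeR, 13 at an unadjusted p under 0.05). With the Y-linked covariate 3, 4 and 3 genes of these lists passed, and with total counts 4, 2 and 4. When 1 sample was left out, 1 to 6 Wnt antagonists, 2 to 5 metalloproteinases or inhibitors and 2 to 9 BMP and TGF-beta genes passed, with 6, 5 and 9 without C57BL/6 mutant 4.

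Of 14 genes of cartilage regulation and the hedgehog pathway tested, 3 passed with a positive interaction and 2 with a negative one, where 5.46% and 4.58% of all genes did, and the list's median was 0.26. Ihh, the hedgehog ligand of growth plate chondrocytes (chromosome 1, 74945318 to 74951651), measured 16.3, 10.2 and 11.6 CPM in C57BL/6 wild type, 4.43, 3.20 and 2.80 CPM in C57BL/6 mutants, 4.36, 3.03 and 4.27 CPM in BALB/c wild type, and 3.60, 2.88 and 3.49 CPM in BALB/c mutants. The C57BL/6 wild type stood above the other 9 samples, which overlapped, and the interaction was 1.64 (SE 0.321, adjusted p 0.012). Sox5, a partner of Sox9 in cartilage, measured 19.6, 16.1 and 15.3 CPM, then 9.81, 7.03 and 6.36 CPM in C57BL/6 wild type and mutants, and 4.13, 5.99 and 5.74 CPM, then 7.61, 11.5 and 9.01 CPM in BALB/c wild type and mutants. Its groups were separate in both strains in opposite directions, with an interaction of 1.96 (SE 0.288, adjusted p 0.00326) and a BALB/c effect of 0.82 that did not pass (adjusted p 0.147). Sox9, the master factor of cartilage, had one of 1.32 (adjusted p 0.0379) that passed in 4 of 12 fits that left out 1 sample. Pth1r, the receptor for parathyroid hormone in osteoblasts and chondrocytes, was negative (-0.55, adjusted p 0.0132), as was Mef2c (-0.52, adjusted p 0.0452), a factor of chondrocyte enlargement. Of 17 cartilage matrix genes, 1 passed in edgeR, or 5.88% against 10% of all genes (Epyc, 1.63, adjusted p 0.0226), although their median interaction was 3.38. In fits that left out 1 sample 0 to 16 passed, 16 without C57BL/6 mutant 4. With all samples DESeq2 called 3, limma-voom 7 and edgeR with total counts 4. The summed level of the 17 genes was 11723 to 13560 CPM in C57BL/6 wild type, 5170 to 8493 CPM in C57BL/6 mutants, 5270 to 6266 CPM in BALB/c wild type, and 5893, 11351 and 5754 CPM in BALB/c mutants 16, 17 and 18, of which replicate 17 was high.

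Lists of markers of tissues attached to the bone had large median interactions, and how many genes passed depended on C57BL/6 mutant replicate 4. On the log2 scale the medians were 2.20 (motile cilia), 3.78 (basal and simple epithelium), 4.88 (nasal gland and airway) and 1.63 (olfactory neuron). Of 16 motile cilia genes 1 passed, Rsph1, a part of the ciliary spoke (3.96, SE 0.807, adjusted p 0.0143), although 11 were lower in C57BL/6 mutants past the threshold. Of the 17 listed, Spag6, Tekt1 and Hydin had 0 counts in all 3 BALB/c wild type samples, and Spag6 and Cdhr3 in all 3 BALB/c mutants. Of 13 genes of basal and simple epithelium 0 passed in edgeR, DESeq2 or limma-voom, with 4 at an unadjusted p under 0.05 in each, but 10 of the 13 passed in edgeR without C57BL/6 mutant 4. Their summed level was 170 to 364 CPM in C57BL/6 wild type, 93.4, 4.12 and 5.50 CPM in C57BL/6 mutants 4, 5 and 6, and 3.69 to 7.49 CPM in BALB/c. Of 11 nasal gland and airway genes 1 passed (Lyz2, a lysozyme that macrophages also make, 0.61, adjusted p 0.0195), and all 18 listed summed to 330 to 1163 CPM in C57BL/6 wild type, 47.8 to 215 CPM in C57BL/6 mutants and 80.7 to 109 CPM in BALB/c. Of 14 olfactory neuron genes 2 passed in opposite directions, Adcy3 (-0.47, adjusted p 0.0157), which overlaps Cenpo, and Ric8b (0.47, adjusted p 0.0364), and their summed level was 313 to 478 CPM, 160 to 272 CPM and 109 to 118 CPM in C57BL/6 wild type, C57BL/6 mutants and BALB/c. The shares called of the cilia, gland and olfactory lists were 6.25%, 9.09% and 14.3%, against 10% of all genes. Without C57BL/6 mutant 4, 10 of 16 cilia genes, 5 of 12 gland genes and 11 of 14 olfactory genes passed, and with all samples DESeq2 called 6 cilia genes. The part of these tissues in the results above was not tested beyond the fits with the motile cilia covariate, of whose variance in C57BL/6 genotype set 75.6%.

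Skeletal muscle interactions rested on few samples. Of 14 tested, 5 passed (35.7%, against 10% of all genes), all positive (Acta1, Ckm, Myh8, Tnnt3 and Ryr1). DESeq2 called 7, limma-voom 0 (2 at an unadjusted p under 0.05) and edgeR with the Y-linked covariate 0 (3 at an unadjusted p under 0.05), and 0 to 8 passed when 1 sample was left out. Ckm, muscle creatine kinase, measured 0.935, 9.82 and 0.590 CPM in C57BL/6 wild type, 0.271, 0.0970 and 0.269 CPM in C57BL/6 mutants, 0.451, 0.679 and 0.468 CPM in BALB/c wild type, and 28.6, 1.89 and 0.0492 CPM in BALB/c mutants. BALB/c mutant 16 and C57BL/6 wild type 2 were the high samples. The interaction of 8.36 (SE 2.28, adjusted p 0.0409) passed in 4 of 12 fits that left out 1 sample. The summed level of the list was 528 CPM in BALB/c mutant 16 and 23.8 to 119 CPM in the other 11 samples.

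Of the 1626 genes, 171 had a larger absolute effect in BALB/c, 119 positive and 52 negative. Among those with a mean of at least 1 CPM and a gene symbol, clone-type names such as Rik being left out, the 6 with the smallest interaction p were all positive: Fam53b, Itga4, Fbxo5, Fry, Arrb1 and Mtr. Fam53b measured 43.0, 37.6 and 36.0 CPM in C57BL/6 wild type, 29.9, 29.0 and 33.8 CPM in C57BL/6 mutants, 39.1, 37.9 and 35.5 CPM in BALB/c wild type, and 50.8, 46.1 and 48.7 CPM in BALB/c mutants, an interaction of 0.70 (SE 0.113, adjusted p 0.00502). Its mutants left the wild type range in opposite directions by about equal steps (-0.33 and 0.37). Itga4, an integrin of blood cells that overlaps Cerkl, had an interaction of 0.94 (adjusted p 0.00604), Fbxo5, an inhibitor of the anaphase-promoting complex, 0.72 (adjusted p 0.00756), Arrb1, beta-arrestin 1, 0.45 (adjusted p 0.00812) and Mtr, methionine synthase, 0.55 (adjusted p 0.00826). None of the 6 passed within BALB/c (adjusted p 0.0617 to 0.0991, edgeR).

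A few genes passed in BALB/c and in the interaction without passing in C57BL/6, and they were singled out after their values were seen. Elk4, an ETS factor that works with SRF, rose in BALB/c from 6.11 CPM ± 0.434 to 13.8 CPM ± 4.27 and was 21.8 CPM ± 0.642 and 27.4 CPM ± 2.19 in C57BL/6 wild type and mutants (SD, n = 3), an interaction of 0.85 (SE 0.235, adjusted p 0.0428). Dpysl3, a cytoskeletal regulator, rose in BALB/c from 33.3 CPM ± 5.58 to 53.9 CPM ± 4.05 and was 81.2 CPM ± 5.38 and 86.0 CPM ± 2.64 in C57BL/6 (SD, n = 3), an interaction of 0.61 (SE 0.143, adjusted p 0.0244). Arhgef12, an activator of small GTPases, had an interaction of 0.34 (adjusted p 0.0488) and Gpld1, a phospholipase that releases anchored surface proteins, of 0.36 (adjusted p 0.0296). The 1 negative gene of this kind was 2610203C20Rik, a noncoding transcript, which fell in BALB/c, as 0.0432% of all genes tested did, from 66.4 CPM ± 3.18 to 47.2 CPM ± 3.47 and was 33.0 CPM ± 1.26 and 33.0 CPM ± 0.289 in C57BL/6 (SD, n = 3), an interaction of -0.49 (SE 0.0868, adjusted p 0.00775).

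Housekeeping and stress genes gave weaker results. Of 26 cytosolic ribosomal protein genes, 5 passed, all negative (Rpl38, Rplp0, Rplp1, Rps12 and Rps14), with a list median of -0.31. That is 19.2% of the list, against 10% of all genes. With total-count scaling 0 passed in edgeR (1 at an unadjusted p under 0.05), DESeq2 called 17 and limma-voom 7, and 0 to 11 passed when 1 sample was left out. Of 22 genes of oxidative phosphorylation 2 passed (Uqcrb and Cox4i1, both negative), and of 17 glycolysis genes 1 (Aldoa, negative), shares of 9.09% and 5.88% that do not exceed the 10% of all genes. Of 18 immediate early genes, which tissue handling can induce, Fosb, Jund, Klf2 and Klf4 passed (22.2%), all negative, and with total-count scaling 1 of the 18 passed. DESeq2 called 9 of the 18, and edgeR 2 with the Y-linked and 1 with the muscle covariate. When 1 sample was left out, 1 to 7 passed. Jund, an AP-1 subunit, was 246 CPM ± 5.97 and 348 CPM ± 12.1 in C57BL/6 wild type and mutants and 656 CPM ± 52.5 and 649 CPM ± 11.2 in BALB/c wild type and mutants (SD, n = 3), an interaction of -0.52 (SE 0.0933, adjusted p 0.00845). Of 12 endothelial genes 0 passed in edgeR (4 at an unadjusted p under 0.05) and in limma-voom, and 1 in DESeq2, and of 7 adipocyte genes 0 in edgeR (1 at an unadjusted p under 0.05) and in limma-voom, and 1 in DESeq2. Of 12 Schwann cell genes 2 passed (Gfap, 2.00, adjusted p 0.0182, and Frzb), and of 11 smooth muscle genes 2 in opposite directions (Synpo2, 2.62, adjusted p 0.0325, and Mir145, -2.41, adjusted p 0.0159, which overlaps E330013P06, so its counts are uncertain). These are 16.7% and 18.2% of the lists, against 10% of all genes. The positive smooth muscle call was lost in limma-voom and with the Y-linked covariate. BALB/c mutant 16 was high for both lists: the Schwann cell genes summed to 783 CPM in that sample and to 159 to 181 CPM in the other 2 BALB/c mutants, and the smooth muscle genes to 659 CPM and 432 to 434 CPM.

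Genes near the mutated locus were also counted. Within 5 Mb of Fgfr2, 21 of 142 genes tested passed (14.8%), and within 10 Mb 25 of 203 (12.3%), against 10% of all genes. Over the autosomes and the X chromosome the share ran from 6.78% on chromosome 16 to 11.4% on chromosome 15, and it was 8.41% on the X (45 of 535).

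The authors' deposited table gives the mutation's effect in each strain separately, with no interaction test. A q-value under 0.05 in the authors' deposited table was held by 4401 genes in C57BL/6, by 228 in BALB/c and by 87 in both, of which 49 had opposite directions. Of these 49 in the authors' deposited table, 47 fell in the C57BL/6 mutants while rising in those of BALB/c, and 2 were the reverse. In the authors' deposited table Ermap had log2 fold changes of -1.70 in C57BL/6 and 0.76 in BALB/c, Klf1 -2.22 and 0.72, Plk1 -0.73 and 0.49, and Mki67 -0.73 and 0.47. The 2 reverse genes in the authors' deposited table, singled out by their values, were Dnm3os (0.55 and -0.57), a noncoding transcript that hosts microRNAs of skeletal mesenchyme, and 2210403K04Rik (0.39 and -0.57).

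**Figure D5:**
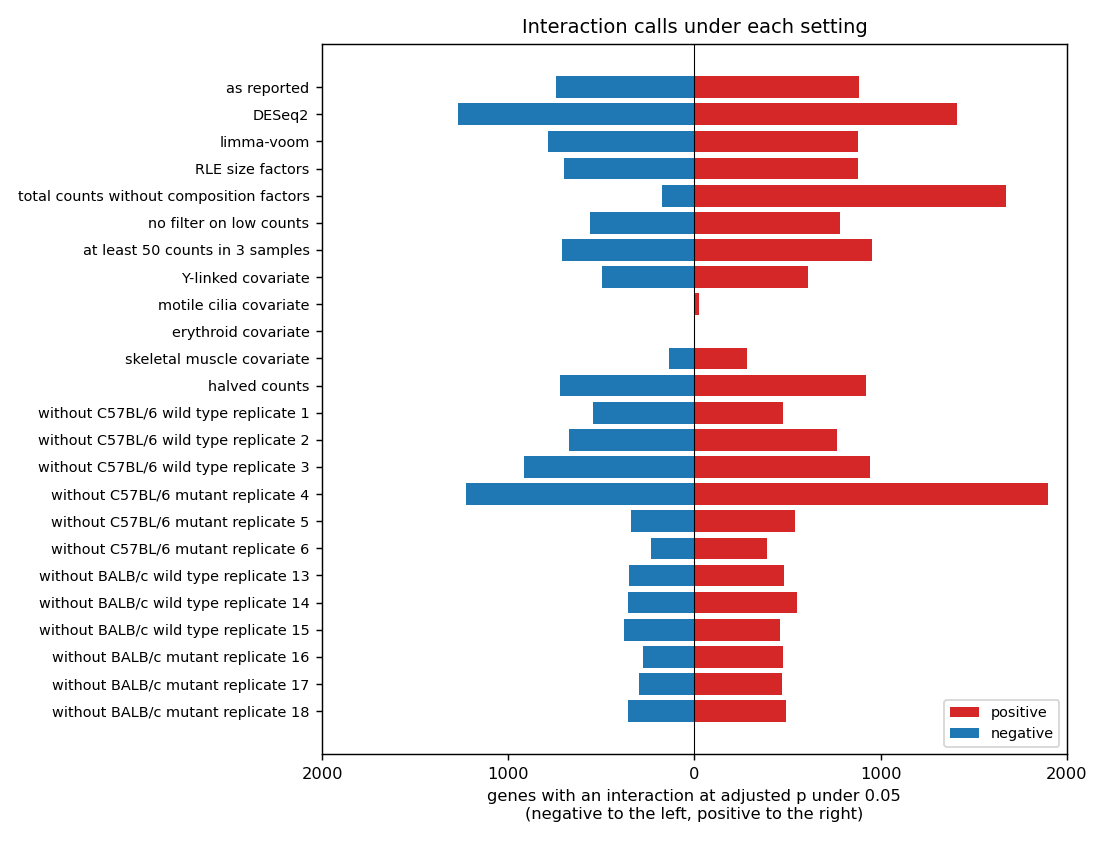
Number of genes that passed the interaction test under each setting, negative to the left and positive to the right. Counts run from 0 with the red cell (erythroid) covariate to 3129 without C57BL/6 mutant replicate 4, against 1626 as reported.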

How the data were processed

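Levels of mRNA were compared over 12 samples in 4 groups of 3, assigned from the labels. Per the submitters' processing notes the tools were bcl2fastq, TopHat2 2.0.6, HTSeq and DESeq2 and the build mm10. The annotation, strand setting and filters are not given in the sources used here. The authors deposited raw gene counts for 23358 genes, all even, with RPKM values (per kilobase of coding length) that were not used. The authors also deposited log2 fold changes with p-values and their q-values for each group comparison, from DESeq2, whose version and shrinkage are not given. Of the value columns, 0 belonged to no sample. There were 26 identifiers on more than 1 row, which were not named.

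Counts were tested with edgeR 4.0.16 in R 4.3.3: filterByExpr (minimum count 10, minimum total 15) left 16190 genes, libraries were scaled by TMM, and 1 quasi-likelihood model with 4 group means was fitted to all 12 samples. P-values were adjusted by Benjamini-Hochberg over all genes, with calls under 0.05. The standard error is the one implied by the F statistic. CPM divide a count by the effective (TMM) library size and not by gene length. The test was run on simulated counts with a common mean per gene and interactions added to some genes. These counts held no other strain or genotype effect and no outlying sample, so they do not test how such features affect the calls.

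Named were Fgfr2, and, among genes called with a mean of at least 1 CPM and a symbol on 1 row, the 10 smallest p-values in each direction, the 6 smallest with a larger BALB/c effect, and genes called in opposite directions in both strains. From each of 35 gene lists up to 4 called members were named, or the 2 most abundant. Other names were chosen after their values were seen. A few results are not reported here. The contrast, members and lists were chosen with earlier results of these data known. Of 513 list entries, 510 matched an identifier. Promoters come from RefSeq (GRCm38.p6). Alternatives were DESeq2 1.42.0, limma-voom (limma 3.58.1), RLE factors, total counts, no filter, at least 50 counts in 3 samples, covariates for Y-linked, motile cilia, red cell and muscle genes, each sample left out, and halved counts.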

Additional observations from a re-analysis of the deposited data

Results flagged for a closer look

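The mutation's effect differed between the strains, by the interaction test itself, for 1626 genes, 884 positive and 742 negative (edgeR, adjusted p under 0.05).

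Of the named genes, 6 passed within each strain in opposite directions and in the interaction. The log2 interaction was 2.60 for Ermap, 2.38 for Spnb1, 2.70 for Rhd, 1.25 for Plk1, 1.32 for Car2 and 1.17 for Abcb10. In each of the 6 all 3 C57BL/6 mutants lay below their wild type and all 3 BALB/c mutants above theirs. A seventh gene, Sytl3, also passed in both strains in opposite directions, at a mean of 0.271 CPM over the 12 samples and with 0 counts in BALB/c wild type. Groups of 3 samples were not screened for outlying samples.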

How the results depend on the processing

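Against 1626 interaction calls (884 positive, 742 negative), DESeq2 made 2683 (1413 and 1270), and total-count scaling 1672 positive and 175 negative. The motile cilia covariate left 27 (25 positive, 2 negative), the muscle covariate 423 (285 and 138) and the red cell covariate 0 (0 and 0) in edgeR, with 950 at an unadjusted p under 0.05. In C57BL/6 genotype set 94.29% of the variance of the red cell covariate and 75.6% of that of the cilia covariate. In that strain these fits can therefore separate genotype from the covariate only in part. Calls in C57BL/6 (3867) became 2 with either of these covariates. Calls in BALB/c (22) became 314 with DESeq2, 44 with limma-voom, 4 with total counts, the Y-linked or the muscle covariate, 40 with the cilia covariate and 0 with the red cell covariate (704 at an unadjusted p under 0.05). The counts from limma-voom, RLE factors, either filter, the Y-linked covariate and halved counts (chosen after seeing the data) for the interaction were within 1.5 times the reported ones.

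Leaving out 1 sample gave 624 to 3129 interaction calls, 392 to 1900 positive and 232 to 1229 negative, 1724 to 4833 calls in C57BL/6 and 0 to 95 in BALB/c, where 4 fits gave 0 in edgeR with 1360 to 1911 at an unadjusted p under 0.05. The interaction count moved by over 1.5 times without C57BL/6 wild type replicate 1 (1019), C57BL/6 mutants 4 (3129), 5 (877) and 6 (624), BALB/c wild types 13 (834), 14 (905) and 15 (840) and BALB/c mutants 16 (751), 17 (765) and 18 (847). The cause of these movements was not tested.

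Among the 115 named genes, interactions that changed sign were as follows, on the log2 scale. With the red cell covariate, Arrb1 was -0.079, Bmp3 0.095, Grem1 -1.20, Spna1 -0.15, Prtn3 -2.14, Mpo -3.97, Elane -5.91, Ctsg -2.63, Igll1 -0.34, Vpreb3 -0.35, Rag1 -0.32, Rrm1 -0.11, Rrm2 -0.69 and Mcm5 -0.39. With the cilia covariate, Cdh5 was 0.0047, Eng 0.062, Epcam -0.41, Lpl -0.31 and Uqcrb 0.0054. Ddx3y, which is Y-linked and passed nowhere, was -0.011, -11.52 and -4.59 with the Y-linked, red cell and muscle covariates and -7.16 without BALB/c mutant 16. Of all 1626 called genes, 1447 kept their sign with the red cell covariate and 1611 with the cilia covariate. Other called genes printed above that changed sign with the red cell covariate were Kel (-0.77), Epor (-0.57), Camp (-2.03), Cdc6 (-0.89), Mcm7 (-0.24) and Bglap (0.017). The cause was not tested. Of the named genes, 110 kept direction and side of the threshold with DESeq2 and with limma-voom, 88 with total counts, 90 with the Y-linked, 63 with the muscle, 19 with the cilia and 8 with the red cell covariate. No paired analysis was made, because the labels name no pairs of mutant and wild type samples.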
